A study of Bos indicus x Bos taurus with 11 samples.

Results

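The 10 genes PRRX1, TWIST1, TWIST2, TBX3, TBX5, TBX15, PITX1, EN1, TFAP2A and NGFR mark mesenchymal, limb and neural crest identity, and they were taken by name from a table of 27398 rows. All 10 were in the table of total counts and all 10 passed the filter on low counts; 6 were also in the table of reads split by parental allele, of 9716 genes. Primary skin fibroblasts were cultured from 6 fetuses with large offspring syndrome (LOS), 3 females and 3 males, conceived by assisted reproduction and heavier than the 97th centile of the controls. The control cultures came from 5 fetuses of artificial insemination (labelled CON_B), 2 females and 3 males. All 11 fetuses were taken at day 105 and were first-generation crosses between Brahman cattle (Bos taurus indicus) and Angus cattle (Bos taurus taurus), with 1 library of ribosome-depleted total RNA each. Assisted fetuses of normal weight were not analysed here, so assisted reproduction and overgrowth cannot be told apart, and neither the body site of the skin nor the passage of the cells is stated in the labels. Each fetus gave 1 culture, so the spread between libraries holds both fetus and culture.

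These genes are regulators of where and what a mesenchymal cell is. PRRX1 and the TWIST genes act in the mesenchyme of the limb bud and the dermis, the T-box genes and PITX1 pattern limbs and body regions, EN1 marks ventral limb ectoderm and, in mouse, a lineage of dorsal dermal fibroblasts, and TFAP2A and NGFR belong to the neural crest, which gives rise to melanocytes, Schwann cells and facial mesenchyme. Fibroblasts keep part of such a positional code in culture.

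Total counts ran from 12084724 to 19297095 in LOS libraries and from 14146969 to 19272277 in controls. All 18 fibroblast markers passed the filter, with a summed level of 75534 to 89972 CPM in LOS, against 71527 to 91194 CPM in controls, where CPM are counts scaled to the size of the library with TMM factors. Of the markers of other cells, those of pericytes summed to at most 282 CPM in LOS libraries, against 273 CPM in control libraries. CSPG4 alone gave 259 CPM of the first sum (LOS 6) and 247 CPM of the second (control 3). Markers of Schwann cells and melanocytes summed to at most 171 CPM in LOS, against 389 CPM in controls. Leukocyte markers summed to at most 0.821 CPM in LOS, against 1.13 CPM in controls. Skeletal muscle markers summed to at most 2.87 and 2.75 CPM, and endothelial markers to at most 12.1 and 16.6 CPM. The leukocyte markers PTPRC and CD74 and the muscle markers MYOD1, MYOG and CKM were not analysed here and are not in these sums. CPM are not corrected for transcript length, so levels are compared within a gene and not between genes. In these bulk cultures, fewer cells of a type and less RNA per cell cannot be told apart.

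TFAP2A and NGFR had the lowest levels in LOS relative to controls, and TWIST1 and TWIST2 had the fitted differences nearest to 0. TFAP2A averaged 1.54 ± 0.917 CPM in LOS (SD, n = 6) and 5.06 ± 3.08 CPM in controls (SD, n = 5), and NGFR 0.862 ± 0.751 CPM in LOS, against 5.95 ± 5.87 CPM in controls. None of the 10 genes passed the test: edgeR's quasi-likelihood F-test, adjusted after Benjamini and Hochberg over all 16946 genes, called 0 of them (0%), and the members had adjusted p-values of 0.932 to 0.992. At an unadjusted p under 0.05 there were 2 members of 10, TFAP2A and NGFR, both lower in LOS, against 4.44% of all genes tested in either direction and 1.95% lower in LOS. Of the 10, 5 had a higher and 5 a lower fitted level in LOS, with a median log2 fold change of -0.11, against 50.2% of all genes lower and a median of -0.00070 over all genes. The groups overlapped in all 10 genes, and they were separate in 0.23% of genes tested.

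**Figure D1:**
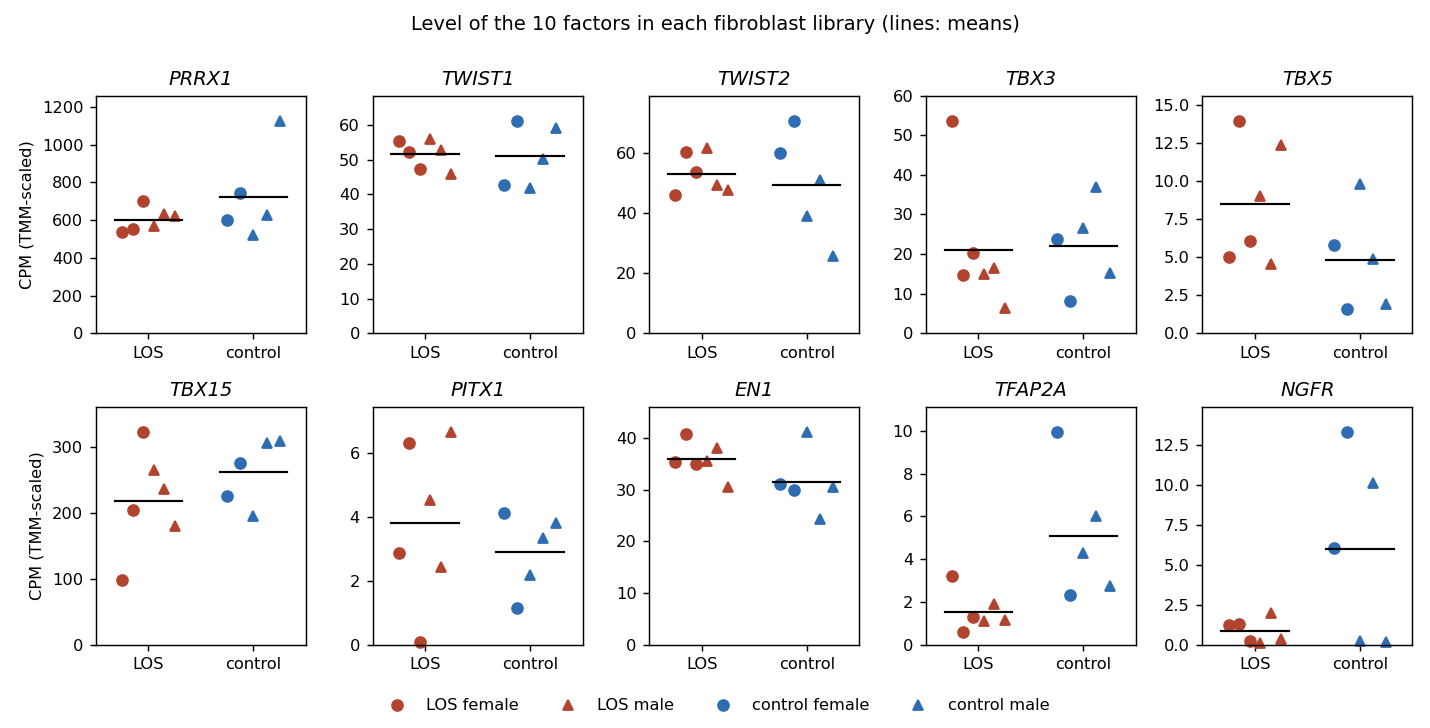
TMM-scaled CPM of each of the 10 genes (vertical axes, linear from 0) in the 6 LOS libraries and the 5 control libraries; circles are females, triangles males, and lines are group means. TFAP2A lay below the control median of 4.28 CPM and NGFR below the control median of 6.01 CPM in all 6 LOS libraries, while TWIST1 stayed between 41.8 and 61.1 CPM in all 11.

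**Figure D2:**
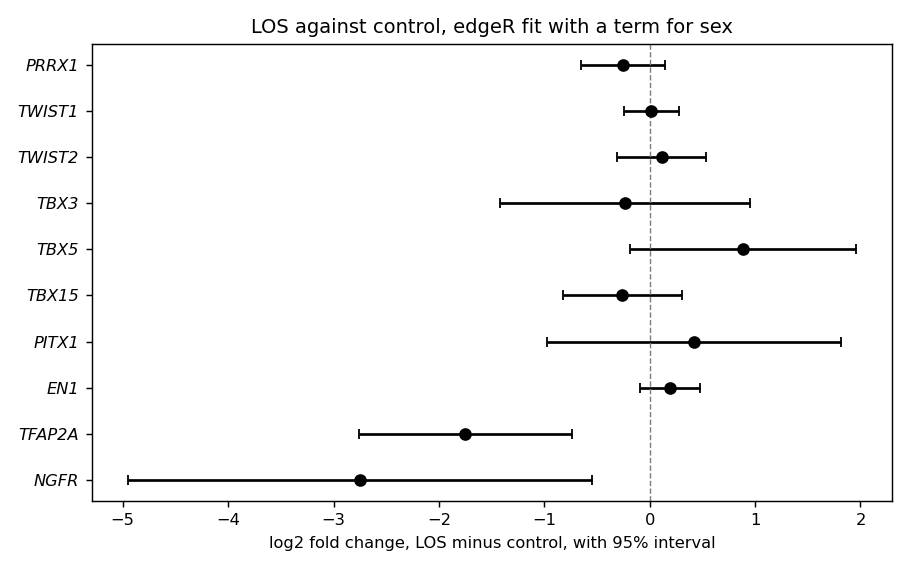
Log2 fold change of each gene, LOS minus control, from the edgeR fit with a term for sex (points), with 95% intervals of the fit (bars) that are not adjusted for the number of genes tested. The intervals of TFAP2A (-2.76 to -0.74) and NGFR (-4.95 to -0.55) lie below 0 and those of the other 8 genes span it.

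PRRX1, a homeobox gene of limb bud mesenchyme and fibroblast lineages (chromosome 16, 38199869 to 38278011, plus strand, build ARS-UCD1.2 as for all positions here), had 538 to 698 CPM in LOS with a median of 594 CPM. The controls had 599, 741, 520, 629 and 1124 CPM for controls 1 to 5. Control 5 stood far above every other library, while controls 1 and 4 lay inside the LOS range. The fit gave a log2 fold change of -0.25 ± 0.18 (SE), with a 95% interval of -0.65 to 0.15, and -0.046 without control 5.

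TWIST1 and TWIST2 encode closely related basic helix-loop-helix proteins, and TWIST2 is also known as the dermis factor Dermo-1. TWIST1 (chromosome 4, 27817880 to 27819874, minus strand) had 45.9 to 55.8 CPM in LOS, against 41.8 to 61.1 CPM in controls. Its log2 fold change was 0.02 ± 0.12, and the interval of -0.25 to 0.28 is the narrowest of the 10 genes. TWIST2 (chromosome 3, 118051375 to 118103634, plus strand) had 46.0 to 61.5 CPM in LOS, with a median of 51.5 CPM. Controls 1 to 5 had 60.1, 70.6, 38.9, 51.1 and 25.8 CPM, so the LOS range lay inside the control range. Its fitted difference was 0.11 ± 0.19. The TWIST2 locus carries an antisense lncRNA gene at its end, LOC101905509, at 2.71 CPM in LOS, against 4.80 CPM in controls, and whether counting used the strand is not stated in the labels, so reads of the overlap cannot be told apart. The dimer partners and inhibitors of TWIST proteins and the other factors of epithelial-mesenchymal transition numbered 13 tested genes, 9 higher and 4 lower in LOS, with 0 passing the test, a median of 0.05 and 1 at an unadjusted p under 0.05. That gene was SNAI2, a repressor of epithelial genes that acts in neural crest and mesenchyme, at 132 ± 50.1 CPM in LOS, against 72.5 ± 17.6 CPM in controls (log2 fold change 0.86 ± 0.26, adjusted p = 0.932). ID3, KLF8 and SNAI1, the next by p, had log2 fold changes of 0.61 ± 0.36, 0.24 ± 0.22 and 0.34 ± 0.34.

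Among the T-box genes of the set, TBX5 had the largest fitted difference. TBX5, the forelimb and heart factor (chromosome 17, 60228576 to 60317378, plus strand), had 5.01, 13.9, 6.03, 9.03, 4.53 and 12.4 CPM in LOS 1 to 6. In controls 1 to 5 it had 5.81, 1.58, 9.78, 4.87 and 1.91 CPM. Of the LOS libraries 5 of 6 lay above the control median, and the 2 lowest levels were both controls. The log2 fold change was 0.88 ± 0.49 with an interval of -0.19 to 1.96 (unadjusted p = 0.0978, adjusted p = 0.932).

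TBX3, a repressor that acts in limb and mammary development, lies on the same strand of chromosome 17 (60087864 to 60102076), with 126500 bp between its end and the start of TBX5. It had 53.6, 14.7, 20.3, 15.0, 16.4 and 6.50 CPM in LOS 1 to 6, and 23.7, 8.05, 26.7, 37.0 and 15.3 CPM in controls 1 to 5. LOS 1 held the highest level of all libraries, while LOS 6 held the lowest, and the LOS range enclosed the control range. The fitted difference of -0.23 ± 0.54 had an interval of -1.42 to 0.95. Across the 11 libraries TBX3 and TBX5 were not shown to vary together (Pearson r = 0.03, permutation p = 0.938, adjusted p = 0.995; Spearman rho = -0.16, permutation p = 0.637, adjusted p = 0.895). That r moved to 0.42 without LOS 1 and LOS 6, the libraries farthest from the TBX3 median, and to -0.65 without controls 2 and 5, the farthest from the TBX5 median.

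TBX15, a factor of dermal and skeletal patterning that in mouse sets a boundary of coat colour (chromosome 3, 24129612 to 24255111, plus strand), had 97.8 to 323 CPM in LOS with a median of 220 CPM, and 196 to 309 CPM in controls with a median of 276 CPM. LOS 1 lay below every other library and LOS 3 above every other library. The fitted difference was -0.26 ± 0.26, and it was -0.12 without LOS 1 and -0.45 without LOS 3.

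PITX1 and EN1 are homeobox genes of limb identity, PITX1 of the hindlimb. PITX1 (chromosome 7, 46474414 to 46480622, minus strand) had 2.87, 6.31, 0.075, 4.55, 2.42 and 6.66 CPM in LOS 1 to 6, the value of LOS 3 being a single read. The controls had 4.12, 1.14, 2.17, 3.34 and 3.81 CPM. Both the lowest and the 3 highest levels were LOS libraries, and the fitted difference of 0.42 ± 0.63 had an interval of -0.97 to 1.82. PITX1 and TBX5, markers of hindlimb and forelimb, were both detected in all 11 libraries. EN1 (chromosome 2, 70606399 to 70615085, minus strand) had 30.5 to 40.8 CPM in LOS with a median of 35.5 CPM, against 31.1, 30.0, 41.2, 24.4 and 30.6 CPM in controls 1 to 5. In LOS 5 of 6 libraries lay above the control median, with a fitted difference of 0.19 ± 0.13 and an interval of -0.097 to 0.47. In females the LOS levels of 35.1 to 40.8 CPM lay above the control levels of 30.0 and 31.1 CPM. The groups were separate in females in 17.5% of 17583 genes, and in males those of EN1 overlapped.

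The other factors of limb and dermal identity were evenly divided: of 32 tested, 16 were higher and 16 lower in LOS, 0 passed the test, and the median log2 fold change was 0.01. At an unadjusted p under 0.05 there were 2 higher and 1 lower. Among them were MSX2, a homeobox target of BMP signals (25.05 ± 10.6 CPM in LOS, against 14.5 ± 4.24 CPM in controls, 0.80 ± 0.34) and TBX2, the nearest relative of TBX3 (2.09 ± 1.30 CPM in LOS, against 4.24 ± 2.37 CPM in controls, -1.32 ± 0.52). GLI1, a target and effector of hedgehog signals, came next at 14.9 ± 8.86 CPM in LOS, against 9.03 ± 3.57 CPM in controls (0.76 ± 0.41). All 3 had an adjusted p of 0.932 by edgeR.

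TFAP2A encodes activator protein 2 alpha, a factor of neural crest and epidermis (chromosome 23, 45615019 to 45637794, plus strand). It had 3.20, 0.58, 1.28, 1.10, 1.89 and 1.16 CPM in LOS 1 to 6, from 8 to 39 counts. Controls 1 to 5 had 9.93, 2.32, 4.28, 6.00 and 2.75 CPM, from 39 to 147 counts. LOS 1 was the single LOS library that reached into the control range, above controls 2 and 5. The edgeR log2 fold change was -1.75 ± 0.46 (unadjusted p = 0.00285, adjusted p = 0.932), and its p ranked 13 among the 16946 genes. Within females it was -1.86 ± 0.70 and within males -1.66 ± 0.65, and in males the highest LOS level, 1.89 CPM, lay below the lowest control level, 2.75 CPM; in males the groups were separate in 12.9% of 17583 genes. TFAP2A is also abundant in keratinocytes. Of 22 keratinocyte markers with a row, 12 passed the filter, 2 higher and 10 lower in LOS with a median of -0.48 and 0 passing the test. Their summed level was 39.4 to 171 CPM in LOS, against 47.2 to 120 CPM in controls. Most of the 2 highest sums came from DSC3 and ITGA6, at 92.2 and 66.0 CPM in LOS 4 and 72.3 and 22.1 CPM in control 5. The basal keratin KRT5 was found in LOS 2, control 1 and control 4, at 1.96, 1.15 and 1.72 CPM, and it was at 0 in the 8 other libraries. LOS 2, with the highest KRT5, had the lowest TFAP2A, whereas controls 1 and 4 had the 2 highest TFAP2A levels. Other markers of the list differed in pattern. Within LOS, CDH1 (21.2, 5.21 and 3.32 CPM) and PERP (10.3, 5.52 and 2.94 CPM) were highest in LOS 1, 5 and 3, as TFAP2A was. Among controls both were highest in control 3, at 9.10 and 9.78 CPM. LAMA3 was highest among controls in controls 4 and 1 (19.5 and 15.1 CPM), while DSC3 and ITGA6 were highest in LOS 4. ITGA6 (34.1 CPM in LOS, 23.2 CPM in controls) and LAMA3 (7.89 and 12.5 CPM) were among the 4 genes of that list with the smallest p. Of 16 proliferation genes 15 also had a lower fitted level in LOS, with a median of -0.43. None of the 16 passed the test, and 1 had an unadjusted p under 0.05 by edgeR. The list summed to 181 to 593 CPM in LOS, against 246 to 459 CPM in controls, with 593 CPM in LOS 1. CDC45, PCNA, KIF20A and BUB1 led that list, at -0.47 ± 0.15, -0.46 ± 0.25, -0.72 ± 0.39 and -0.46 ± 0.26. The part of either marker list in the TFAP2A difference was not tested.

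NGFR encodes the low-affinity neurotrophin receptor p75, which marks neural crest stem cells, Schwann cells and some mesenchymal cells (chromosome 19, 37093168 to 37112123, minus strand). It had 1.23, 1.31, 0.23, 0.07, 1.96 and 0.37 CPM in LOS 1 to 6, from 1 to 26 counts. Controls 1 to 5 had 6.01, 13.3, 0.20, 10.1 and 0.14 CPM, from 2 to 269 counts. The controls were divided: controls 1, 2 and 4 lay above every LOS library, and controls 3 and 5 lay below 5 of the 6 LOS libraries. The edgeR log2 fold change was -2.75 ± 1.00 (unadjusted p = 0.0188, adjusted p = 0.932), and it moved to -1.56 without control 4 and to -3.57 without LOS 5. By sex it was -3.38 ± 1.496 in females, in whom the groups did not overlap, as in 17.5% of 17583 genes, and -2.18 ± 1.41 in males, in whom control 4 alone was high.

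KIT and EDNRB, of the list of melanocyte and Schwann cell markers, were highest in the same controls. KIT, the stem cell factor receptor of melanoblasts and mast cells, had 0.246, 1.38, 0.302, 0.734, 1.96 and 0.106 CPM in LOS 1 to 6 and 7.498, 7.80, 0.679, 4.28 and 0 CPM in controls 1 to 5. As with NGFR, controls 1, 2 and 4 lay above every other library. EDNRB, the endothelin receptor of the melanocyte and enteric lineages, was highest in the same 3 controls, at 8.58, 9.18 and 6.69 CPM. Its highest LOS level was 6.09 CPM, in LOS 4. The other tested genes of the list did not share all 3 high controls. MITF was highest in controls 2 and 4, but in control 1 (56.0 CPM) it lay below LOS 2 to 6. GFRA3 was highest in control 2 and LOS 4 (45.8 and 42.9 CPM), with 20.9 CPM in control 1. PMEL, a melanosome matrix protein gene, was highest in controls 1 and 2, with control 4 (39.8 CPM) below control 3, LOS 4 and LOS 5. S100B, of glia and melanocytes, was highest in LOS 6 and LOS 2 (15.5 and 11.98 CPM) and at most 8.44 CPM in controls. Of 12 such genes with a row, 6 passed the filter, 1 higher and 5 lower in LOS, 0 passing the test, and their median was -0.51. KIT alone had an unadjusted p under 0.05 (edgeR log2 fold change -2.14 ± 0.96, unadjusted p = 0.0466, adjusted p = 0.932). PMEL (-1.03 ± 0.72), EDNRB (-0.63 ± 0.56) and S100B (0.28 ± 0.45) followed. The list summed to 88.1 to 171 CPM in LOS, against 58.0 to 389 CPM in controls, most of it from MITF and PMEL. The glial gene ERBB3 and the crest factor FOXD3 were below 1 CPM in every library, and so were GAP43 and TYRP1. SOX10, TYR, DCT and MLANA were not analysed here. Whether crest-derived cells in some cultures bear on the NGFR levels was not tested.

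**Figure D3:**
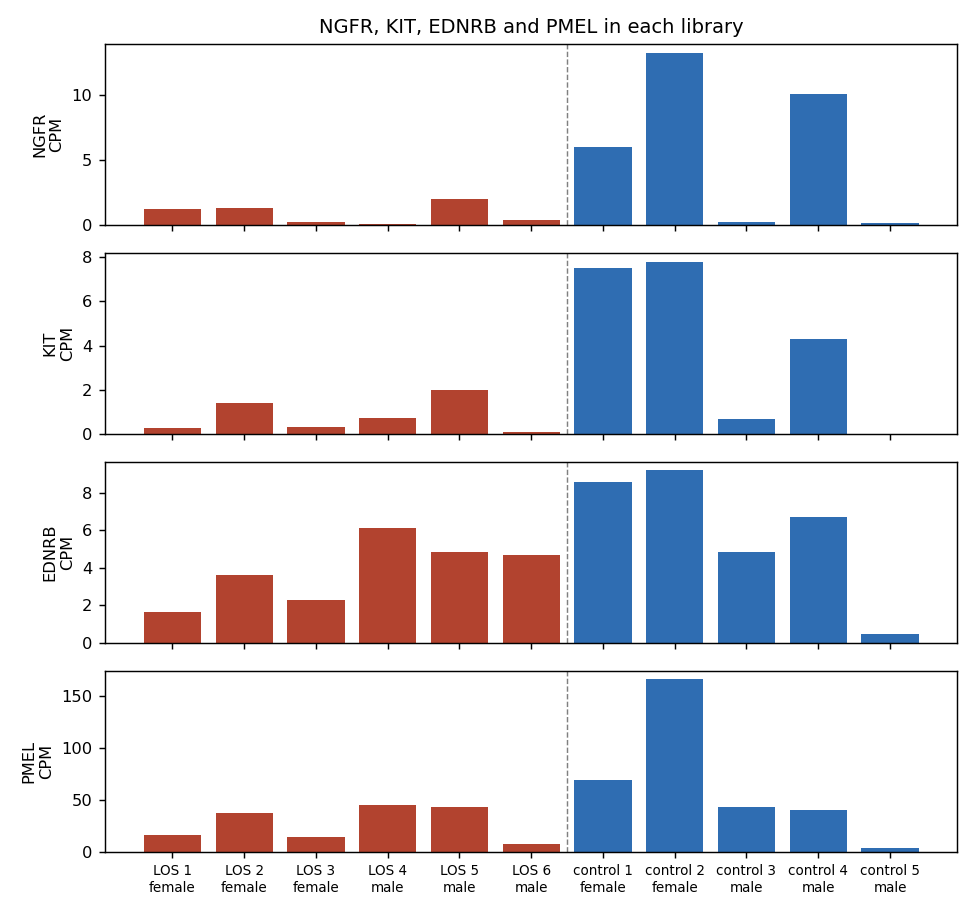
CPM of NGFR, KIT, EDNRB and PMEL (vertical axes, linear from 0) in LOS 1 to 6, left, and controls 1 to 5, right; each bar is 1 library. Controls 1, 2 and 4 carry the 3 highest bars of NGFR, KIT and EDNRB, while control 5 has 0.14 CPM of NGFR and 0 CPM of KIT.

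The other crest factors and the neurotrophin pathway had medians near 0. Of 8 tested crest factors 5 were higher and 3 lower in LOS, with a median of 0.10 and 0 passing the test. ETS1 (162 ± 50.5 CPM in LOS, against 120 ± 16.2 CPM in controls, 0.42 ± 0.20), NR2F1 (-0.36 ± 0.20), LMO4 (0.13 ± 0.10) and PAX3 (0.81 ± 0.68) had the smallest p. The AP-2 relatives TFAP2B, TFAP2C and TFAP2E lay below the filter. Of 10 tested neurotrophins and receptors 5 were higher and 5 lower, with a median of -0.01 and 0 passing the test. BDNF, a ligand that binds NGFR, averaged 5.72 ± 1.46 CPM in LOS, against 8.62 ± 2.34 CPM in controls (-0.64 ± 0.19, unadjusted p = 0.0059, adjusted p = 0.932). SORT1, a co-receptor of NGFR for pro-neurotrophins, averaged 146 ± 42.8 CPM in LOS, against 195 ± 80.6 CPM in controls, with the 2 highest levels in controls 2 and 4 (291 and 262 CPM). RTN4R (0.44 ± 0.34) and BEX3 (-0.31 ± 0.33) followed.

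Pericyte markers summed to 135 to 282 CPM in LOS, against 125 to 273 CPM in controls, most of it from CSPG4 (6 tested, 4 higher and 2 lower). Adipocyte markers summed to 13.5 to 24.4 CPM in LOS and 9.88 to 39.2 CPM in controls (3 tested, 2 higher and 1 lower). Cartilage and bone markers summed to 52.3 to 121 CPM in LOS and 56.0 to 94.8 CPM in controls (5 tested, 2 higher and 3 lower). RUNX2 made up most of each of these sums, with 116 of the 121 CPM in LOS 2. Of the last list ALPL (-2.51 ± 0.95) and ACAN (-3.40 ± 1.45), an enzyme of mineralisation and a cartilage proteoglycan gene, had an unadjusted p under 0.05. ALPL shared the high controls of NGFR, at 3.11, 2.52 and 5.95 CPM in controls 1, 2 and 4 and at most 1.28 CPM in LOS. Fibroblast markers divided into 9 higher and 9 lower, endothelial markers into 0 and 3 and muscle markers into 0 and 2. None of these genes passed the test.

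The members divided by how much fetuses differed. Biological coefficients of variation, from the dispersions of the edgeR fit, were 15.9% for TWIST1, 17.0% for EN1, 22.3% for PRRX1, 23.5% for TWIST2 and 30.2% for TBX15, against a median of 22.5% over all genes tested. They were 51.4% for TFAP2A, 54.1% for TBX5, 55.8% for TBX3, 73.2% for PITX1 and 110% for NGFR, larger than in 91.0% to 99.0% of genes tested. Genes of few counts vary more in general, and the fitted trend at their level was 24.5% for TBX3 and 38.6% for TFAP2A. The highest and lowest library differed 1.46-fold for TWIST1, 8.24-fold for TBX3 and 17.1-fold for TFAP2A. In 4 of the 5 steadier genes the standard deviation of log2 CPM was smaller in LOS than in controls, 0.18 against 0.57 for TWIST2 and 0.14 against 0.43 for PRRX1. Without control 5 the control values were 0.37 for TWIST2 and 0.21 for PRRX1. For TBX15 it was larger, 0.60 against 0.29. These are descriptions, with no test of the difference in spread.

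No pair of the 10 genes was shown to vary together. Of 45 pairs, 0 had an adjusted p under 0.05 by a permutation test of Pearson's r over the 11 libraries (100000 resamples, Benjamini-Hochberg over the pairs), and 2 had an unadjusted p under 0.05. Those were PRRX1 with TBX5 (r = -0.73, Spearman rho = -0.68, permutation p = 0.00782 and 0.0252, adjusted p = 0.352 and 0.378) and TWIST1 with TBX5 (r = -0.61, rho = -0.61, permutation p = 0.0446 and 0.0515, adjusted p = 0.671 and 0.464). Without the 2 libraries farthest from the median of TBX5, controls 2 and 5, r was -0.36 for PRRX1 and -0.18 for TWIST1. Without the 2 libraries farthest on the other gene, r was -0.64 for PRRX1 (controls 5 and 3 left out) and -0.70 for TWIST1 (controls 3 and 1 left out). Within the 6 LOS libraries r was -0.24 for PRRX1 and -0.30 for TWIST1. The 45 include 9 pairs with NGFR, for which the libraries formed a high and a low cluster, so its values of r are not given. Adjusted over the other 36 pairs, 0 had a p under 0.05.

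As a description of which genes had the most similar pattern over the 11 libraries, the nearest of 13671 annotated genes was EPB41L5 for PRRX1 (Pearson r = 0.93), CHRNA1 for TWIST1 (0.86), GPM6B for TWIST2 (0.91) and OAT for TBX3 (0.96). It was DAAM1 for TBX5 (0.93), MINDY1 for TBX15 (0.94), PSMD2 for PITX1 (0.90), TOMM20 for EN1 (0.92) and RPRD1B for TFAP2A (0.92). HOXC10, a posterior homeobox gene, was the next for TWIST1 (0.85), at 9.69 CPM in LOS, against 13.4 CPM in controls. The number of genes with r above 0.9 ran from 0 for TWIST1 to 11 for TBX3, and all of these values share the same 11 libraries.

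No member was called between the sexes. For males against females, edgeR called 8 of 16946 genes (0.0472%) and 0 of the members; at an unadjusted p under 0.05 there were 0 members against 3.3% of genes. The fitted values ran from -0.90 ± 0.99 for NGFR to 0.43 ± 0.64 for PITX1, male minus female, which ran from -2.21 to -0.45 for NGFR and from 0.11 to 0.90 for PITX1 with single libraries left out, and TWIST2 had the smallest p (-0.35 ± 0.19, edgeR unadjusted p = 0.0972, adjusted p = 0.999). The effect of LOS was not shown to differ between the sexes either: 0 of 17583 genes (0%) passed, and 2 members, TWIST2 and TBX3, had an unadjusted p under 0.05 against 4.95% of genes. TWIST2 averaged 53.3 ± 7.11 CPM in LOS females against 65.3 ± 7.47 CPM in control females, and 52.8 ± 7.54 CPM in LOS males against 38.6 ± 12.7 CPM in control males. The log2 fold change was -0.29 ± 0.25 in females and 0.45 ± 0.22 in males, a difference of 0.75 ± 0.33 (males minus females, edgeR unadjusted p = 0.0485, adjusted p = 0.921). For TBX3 the signs were opposite to those of TWIST2, at 0.90 ± 0.66 in females and -1.07 ± 0.58 in males (difference -1.97 ± 0.88, edgeR unadjusted p = 0.049, adjusted p = 0.921, and -1.21 without LOS 1). For NGFR the difference was 1.204 ± 2.05, with an interval of -3.35 to 5.76.

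**Figure D4:**
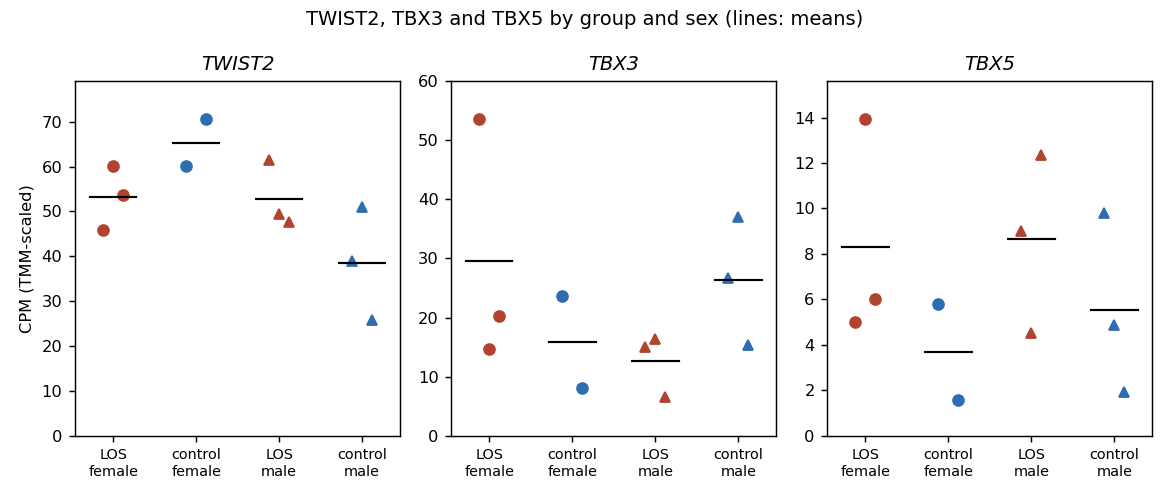
CPM of TWIST2, TBX3 and TBX5 (vertical axes, linear from 0) in LOS females, control females, LOS males and control males; each point is 1 library and lines are means. The means of TWIST2 are 53.3 and 65.3 CPM in LOS and control females and 52.8 and 38.6 CPM in LOS and control males, and the control females number 2.

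Reads that could be assigned to a parent were found for PRRX1, TWIST2, TBX3, TBX5, TBX15 and EN1. EN1 had the most unequal alleles: the maternal allele took 55.1%, 76.4%, 63.3%, 68.2%, 71.7% and 74.5% of reads in LOS 1 to 6, and 63.3%, 69.0%, 65.1% and 58.8% in controls 1 to 4. It was above 50% in all 10 libraries with reads, at 160 to 267 reads each. The exact Clopper-Pearson 95% interval was 47.7% to 62.3% in LOS 1 and 70.1% to 82.0% in LOS 2, covering counting error only. Control 5 had 434 expected counts of EN1 and no allelic read.

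In the edgeR fit of allelic reads, chosen for this question after the shares were seen, the maternal over paternal log2 ratio of EN1 was 1.11 ± 0.15 in LOS (adjusted p = 2e-05) and 0.85 ± 0.18 in controls (adjusted p = 0.00337). The maternal allele was higher by that test in 5.68% of 5700 genes in LOS and 5.37% in controls. EN1's mean share of 66.5% was above that of 99.6% of the genes tested. LOS and control were not shown to differ in it (68.2% ± 7.95, n = 6, against 64.0% ± 4.26, n = 4; difference of log2 ratios 0.26 ± 0.24, edgeR adjusted p = 0.999). The labels name 1 cross, so the parent and the breed of an allele cannot be told apart, and an antisense lncRNA gene, LOC104971255, overlaps EN1 at 6.21 CPM in LOS, against 5.88 CPM in controls.

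TWIST2 leaned to the paternal allele, with a maternal share of 39.6% to 51.1% in LOS and 44.0% to 50.4% in controls. Mean maternal shares over all libraries were also on the paternal side for TBX3 (44.4%), TBX15 (46.7%) and PRRX1 (48.1%). The mean share of TWIST2, 45.8%, was above that of 17.7% of the genes tested. Its log2 ratio was -0.29 ± 0.07 in LOS (edgeR adjusted p = 0.0117), where 4.74% of genes were higher on the paternal side, and -0.19 ± 0.08 in controls (adjusted p = 0.156), where 3.72% were. Without LOS 6 the adjusted p in LOS was 0.0715, and over 13 alternatives it ranged from 0.0023 to 0.0715. TWIST2 had 34600 allelic reads over all libraries against 8790 expected counts, 3.94 reads per count, where the median over genes was 0.188 and 8.77% of genes had more than 1. How allelic reads were counted per gene is not stated in the labels, and the intervals treat each read as independent.

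For the other tested members maternal shares averaged 48.8% ± 4.59 in LOS and 47.3% ± 4.29 in controls for PRRX1, 47.3% ± 5.78 and 46.1% ± 4.60 for TBX15, and 45.6% ± 8.48 and 43.0% ± 7.72 for TBX3 (SD, n = 6 and 5), and TBX3 had 9 to 247 allelic reads per library. TBX5 had 0 to 28 allelic reads per library, with any in 5 LOS libraries and 1 control, and was not tested. For LOS against control 0 of 5700 genes (0%) and 0 of the 5 tested members passed, with an adjusted p of 0.999 each. The table of expected counts multiplied by the share holds PRRX1, TWIST2, TBX3 and TBX15 and adds no other measurement.

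**Figure D5:**
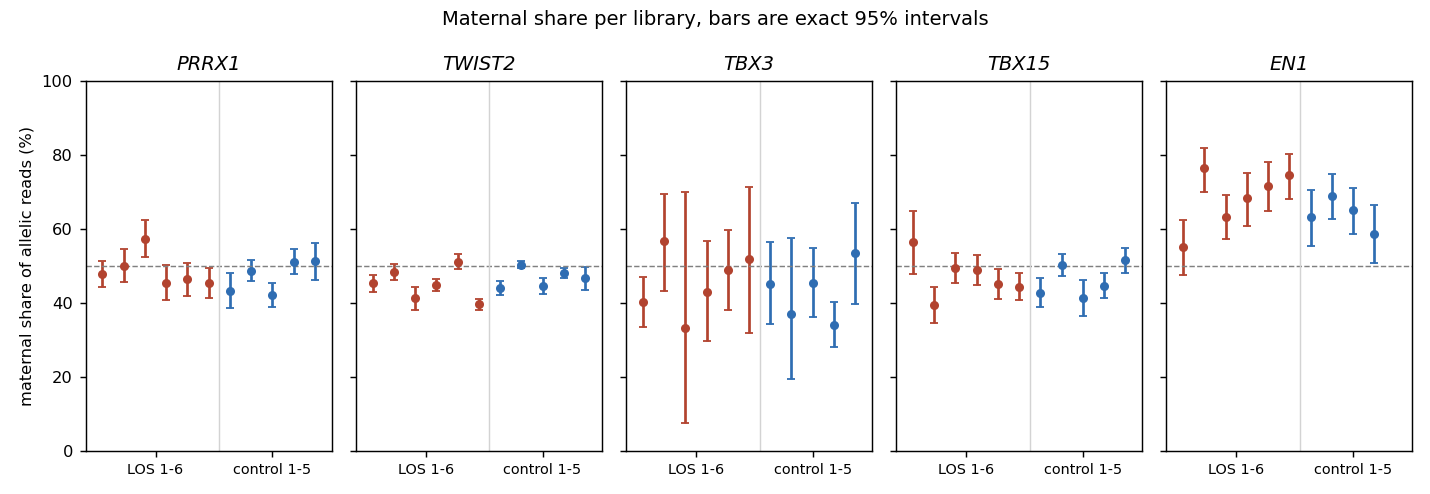
Maternal share of allelic reads (vertical axis, percent, 0 to 100) of 5 genes in LOS 1 to 6 and controls 1 to 5; points are libraries, bars exact 95% intervals, and the dashed line marks equal alleles. EN1 lies above the line in all 10 libraries with reads, from 55.1% to 76.4%, while each of the other genes has libraries on both sides of it.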

How the data were processed

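Per the labels' protocols, total RNA of 11 primary fibroblast cultures was sequenced in paired reads of 150 bp. Tools named in the submitters' processing notes include HISAT2 2.1.0, StringTie 2.1.4, edgeR 3.36.0, Salmon 0.11.1 and GATK, and the build is ARS-UCD1.2; the notes give no role for each tool, and the labels do not state the use of strand. The authors deposited expected counts per gene (21862 annotated genes, 5536 assembled loci), whole read counts per parental allele, and the product of expected counts and allelic share, which was checked (0 values off by more than 0.001).

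Expected counts were rounded and fitted in R 4.3.3 with edgeR 4.0.16: TMM factors, filterByExpr, quasi-likelihood tests with sex and group, and Benjamini-Hochberg adjustment over all genes at 0.05. Allelic reads were fitted with a term per library, allele, and allele by group, for autosomal genes averaging 20 or more reads, with 10 or more in 3 or more libraries per group. The fit was tested on data simulated with the fitted trend of dispersion. Of the members only TWIST1 and EN1 varied less than that trend, and NGFR had 110% against 38.3%. The simulation therefore does not show how the fit performs for members that vary more. The 10 members and the lists were chosen with earlier results of these data known. Named genes are the 10 members, up to 4 genes per list by smallest p, and the 3 genes most alike each member by Pearson r of log2 CPM (prior count 2); others were chosen after their values were seen, and some genes that the rule names are not reported here. P-values of the edgeR fits are set against the spread between libraries, which holds both fetus and culture. Alternatives were DESeq2 1.42.0, limma voom (limma 3.58.1), other scalings and filters, a fit without sex, a block for the replicate number, and leaving out libraries singly. Figures used matplotlib 3.10.9 in Python 3.11.15. No gene or protein sequences were used here.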

Additional observations from a re-analysis of the deposited data

Results flagged for a closer look

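TBX3 in LOS 1 stood far from the other LOS libraries, at 53.6 CPM against 6.50 to 20.3 CPM, the gap being 0.707 of the range of the 6 libraries where 0.625 is the critical value. It was the only library so placed among 31 groups of values checked, and chance places a library so in about 1 group in 20. LOS 1 also held the lowest TBX15 level, at 97.8 CPM, and the highest summed level of proliferation genes, at 593 CPM.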

How the results depend on the processing

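Of 424 single gene values recomputed under other settings 404 kept their direction and their side of the threshold. For LOS against control edgeR called 0 genes in every setting and with each library left out (0 to 0), limma voom 0 and DESeq2 5, none of them a member. The adjusted p of TFAP2A ranged from 0.305 to 1 and that of NGFR from 0.413 to 1, and both stayed lower in LOS in all 22 alternatives. The sign of TWIST1 turned with library size alone (-0.048) and ran from -0.060 to 0.11 with single libraries left out; the sign of TBX3 turned with a replicate block (0.091) and ran from -0.65 to 0.077, that of PITX1 turned with the block (-0.16), and TWIST2 ran from -0.037 to 0.23. For the sexes DESeq2 called 22 genes, the replicate block 2, and leaving out single libraries 3 to 7. In the block PITX1 was 5.11 and NGFR -2.52, but only replicate number 3 joins a female (LOS 3) and a male (control 3). The sex values of the block therefore rest on that pair, in which LOS 3 had 1 read of PITX1. With single libraries left out PITX1 ran from 0.11 to 0.90 and NGFR from -2.21 to -0.45. For the sex difference of the LOS effect DESeq2 called 6 genes and leaving out libraries 0 to 0; NGFR ran from -0.48 to 5.499. For the maternal share, leaving out libraries gave 0 to 1 calls, and PRRX1 ran from -0.014 to 0.14 and TBX15 from -0.047 to 0.099. The causes of the other changes were not tested. Correlated pairs stayed at 0 in all 15 alternatives, of which leaving out the NGFR pairs was added after seeing the data. Replicate numbers were not shown to pair the libraries, though the check made no test and cannot exclude pairing. Deviations from the group mean, with sex not removed, correlated at -0.17 to 0.26 between same-numbered libraries. Of the 5 LOS libraries 2 (LOS 1 and LOS 2) matched their own number best. The replicate block called 0 genes for LOS, and could not be added to the allelic fit, which has a term per library. Few counts limit 3 members in LOS, with 1 to 26 for NGFR, 8 to 39 for TFAP2A and 1 to 126 for PITX1.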
